A study of Mus musculus with 2 samples.

Results

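The regions described here are 3 stretches of the mouse genome around the genes Ebf1, Ebf2 and Ebf3, together with the p300 peaks that lie in them in heart and in midbrain. On build mm9 the Ebf1 window was chromosome 11 from 44200000 to 45100000, the Ebf2 window chromosome 14 from 67600000 to 68300000, and the Ebf3 window chromosome 7 from 144200000 to 144800000. A peak was counted when its midpoint lay in a window, which gave 14 peaks, 5 of the 3597 in the heart list and 9 of the 2786 in the midbrain list. The rule uses the position of the genes and no read value, but the genes were chosen with earlier results of these data known.

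The material was heart or midbrain tissue of CD-1 mice, taken at embryonic day 11.5 from embryos of both sexes, with about 150 embryos pooled per tissue. DNA bound by p300 was enriched with an anti-p300 antibody (chromatin immunoprecipitation) and sequenced as 36 bp reads. Each tissue had 1 library, so no difference below has a replicate check, no test between tissues was possible and every statement is about the library. Aligned reads numbered 1303861 for the heart and 5869671 for the midbrain. Counts scaled to library size are given as rpm, of which a single read made up 0.767 for the heart library and 0.170 for the midbrain library. The dissected tissue is a mixture of cell types, and more cells with p300 at a site and more p300 per cell cannot be told apart. The labels and the deposited lists carry no independent marker of tissue identity, so the labelled tissues were not checked here.

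The EBF proteins (early B-cell factors) are transcription factors that bind DNA as dimers through a zinc-containing domain and carry a helix-loop-helix motif. Ebf1 is best known for committing progenitors to the B-cell lineage, and it also acts in the differentiation of neurons. Ebf2 acts in neuron migration and in the identity of brown fat cells, and Ebf3 in neuronal differentiation. In the embryonic nervous system the 3 genes are known for expression in cells that leave the cell cycle to become neurons. p300 is an acetyltransferase that acetylates histones and serves as a coactivator, and its binding away from gene starts is widely used to mark active enhancers.

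In the RefSeq annotation of another build (GRCm38.p6), used for names and neighbours only, the nearest protein-coding genes beside Ebf1 were Rnf145 and Clint1. Beside Ebf2 they were Ppp2r2a and Cdca2, and beside Ebf3 they were Mgmt and 9430038I01Rik. A genome and gene models of build mm9 were not used here, so no peak is placed in an exon, an intron or a promoter, no distance to a gene start is given and no sequence is printed.

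The midbrain library had listed p300 peaks in all 3 windows. Those of rank 56 (Ebf2), 85 (Ebf1) and 259 (Ebf2) were among the best-ranked 9.30% of its list. Below, a peak said to be at a gene is a peak in the window of that gene, at a distance that is not known. The Ebf1 window held 5 midbrain peaks, and the Ebf2 and Ebf3 windows held 2 each. The heart list had 3 peaks in the Ebf1 window, 2 in the Ebf2 window and 0 in the Ebf3 window. No heart peak of these windows overlapped a midbrain peak. Overlap was rare over all listed peaks too, with 4.28% of the heart list and 5.56% of the midbrain list overlapping the other list, so 0 among these 14 peaks is near the background.

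These numbers were read against windows of equal length laid end to end over chromosomes 1 to 19 and X. At least 5 midbrain peaks stood in 4.0% of 2851 windows as long as that of Ebf1, where the mean was 0.975 midbrain peaks. At least 3 heart peaks stood in 18.6% of them. At least 2 midbrain peaks were present in 17.4% of 3665 windows of the Ebf2 length and at least 2 heart peaks in 24.3%. For the Ebf3 length, at least 2 midbrain peaks were present in 14.5% of 4271 windows and no heart peak in 61.1%. The Ebf1 window was thus among the windows with many midbrain peaks, whereas an absence of heart peaks as in the Ebf3 window was met in most windows.

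**Figure D1:**
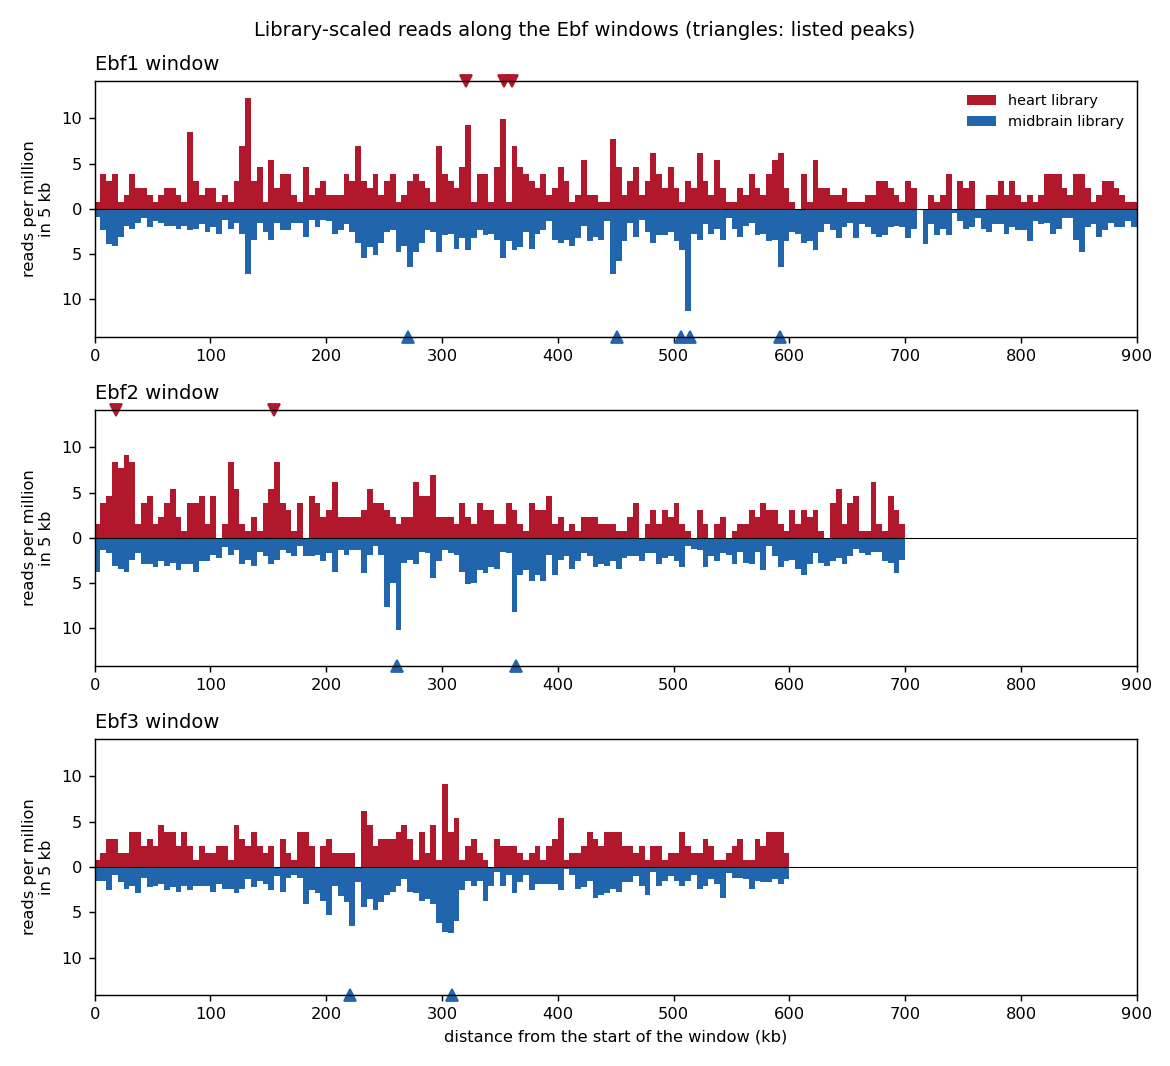
Library-scaled reads (rpm) in 5 kb bins along the Ebf1, Ebf2 and Ebf3 windows, heart upward and midbrain downward, against the distance from the start of each window in kb; triangles mark listed peaks. The tallest midbrain bins, at 11.2 rpm (Ebf1), 10.2 rpm (Ebf2) and 7.33 rpm (Ebf3), lie at listed midbrain peaks. The tallest heart bins, at 12.3 rpm (Ebf1) and 9.20 rpm (Ebf2 and Ebf3), lie where the heart list has no peak.

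In the Ebf1 window the peaks of the lists took separate stretches. The 3 heart peaks lay within 40.2 kb of each other, and those of rank 2987 and rank 951 were 6.07 kb apart, edge to edge. The first midbrain peak lay 49.3 kb before this heart group, and the other 4 midbrain peaks began 90.3 kb after it. Of these, the peaks of rank 2472 and rank 85 were 7.04 kb apart. In all, the midbrain peaks spanned 322 kb. In the Ebf2 window both heart peaks preceded both midbrain peaks, with 105.5 kb between the last heart peak and the first midbrain peak. In the Ebf3 window the midbrain peaks were 86.9 kb apart, and the heart peak nearest to them lay 1169 kb away, outside the window. None of the 14 peaks had a peak of the other list within 50 kb, midpoint to midpoint, against 19.2% of heart peaks and 23.9% of midbrain peaks that did so over the whole lists. The Ebf1 peaks of rank 1164 (midbrain) and rank 3031 (heart) were 50.2 kb apart, just past this limit. A slightly wider limit would count both, so this absence depends on the limit chosen.

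The lists were made from the very reads counted here, so higher counts of a library at its own peaks are a description and not independent evidence. A ratio is given with its exact conditional binomial 95% interval, which covers counting error only. A peak is said to have its interval on its own side when this interval lies wholly above 1 for the library of its list over the other library. This was so for 4 of the 5 heart peaks, against 90.0% of the whole heart list, and for 3 of the 9 midbrain peaks, against 21.6% of the whole midbrain list. With a ratio of at least 2 as the limit, and peaks with 0 reads of the other library taken as past it, the counts were 5 of 5, against 98.1% of the heart list, and 7 of 9, against 78.1% of the midbrain list. These shares lie near those of the whole lists as far as so few peaks can show. Within a fixed 1 kb about each midpoint, 2 of the 5 heart peaks and 4 of the 9 midbrain peaks had their interval on their own side. After thinning the midbrain library to as many reads as the heart library, 1 of 5 heart and 3 of 9 midbrain peaks did. With read ends moved by 150 bp the counts were 3 of 5 and 4 of 9. Depth limits the midbrain count: with 0 heart reads a midbrain peak needs 19 midbrain reads for an interval on its own side, and 4 of the 9 peaks held fewer.

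At Ebf1 the best-ranked peak, rank 85, lay on chromosome 11 at 44713277 to 44714554 (mm9). It held 46 midbrain reads (7.84 rpm) and 1 heart read (0.767 rpm), so the midbrain over heart ratio was 10.2 (interval 1.74 to 412). Only 4.27% of the midbrain list held more midbrain reads. The deposited coverage track rose to 21 lengthened reads in the midbrain and to 1 in the heart.

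The other Ebf1 midbrain peaks were lower. The peak of rank 1164, at 44470210 to 44471239, held 21 midbrain reads (3.58 rpm) and 0 heart reads. This is 1.55-fold higher in the midbrain when 3 heart reads, equal to 2.30 rpm, are taken as the limit that a count of 0 allows in that library. That value leaves out the counting error of the midbrain reads. The exact interval of the peak, which covers it, began at 1.16. At rank 2152, the peak at 44791368 to 44791859 held 12 midbrain reads and 0 heart reads, and its interval began at 0.617. Its 0 heart reads hold for the listed peak only. Outside it, 550 bp before the midpoint, the heart track scaled to library size reached 2.30, against a midbrain maximum of 1.06 within 3 kb. The remaining Ebf1 midbrain peaks stood near the end of the list. The one at 44705765 to 44706235 (rank 2472) held 10 midbrain reads and 0 heart reads, and that of rank 2640, at 44650969 to 44651525, held 11 midbrain and 2 heart reads (ratio 1.22, interval 0.267 to 11.3). At the last 3 of these peaks a difference between the libraries was not detectable at this depth.

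At Ebf2 the midbrain list held its best-ranked member of all 3 windows, rank 56, on chromosome 14 at 67860734 to 67861669. It held 41 midbrain reads (6.99 rpm) and 0 heart reads, 3.04-fold higher in the midbrain against the limit of 3 heart reads. Its exact interval, which also covers the counting error of the midbrain reads, began at 2.36. The other Ebf2 midbrain peak, rank 259 at 67963253 to 67964190, held 30 midbrain reads (5.11 rpm) and 4 heart reads (3.07 rpm), a ratio of 1.67 (interval 0.587 to 6.51). The interval included 1 at this well-covered midbrain peak, and the heart list has no peak there. Only 5.64% of all midbrain peaks held more heart reads. Heart reads were 10.7 times as dense in it as 5 to 10 kb away (interval 1.99 to 57.2), a value that rests on 4 reads in the peak and 4 in the flanks.

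At Ebf3 the peak of rank 440, on chromosome 7 at 144507800 to 144508998, held 31 midbrain reads (5.28 rpm) and 2 heart reads (1.53 rpm). The ratio was 3.44 (interval 0.876 to 29.7), so the interval included 1. The peak of rank 926, at 144420215 to 144420906, held 16 midbrain reads (2.73 rpm) and 0 heart reads, with an interval that began at 0.857. Taken alone and within its listed bounds, neither Ebf3 peak had its interval on its own side. Summed, they held 47 midbrain and 2 heart reads, a ratio of 5.22 (interval 1.37 to 44.4).

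**Figure D2:**
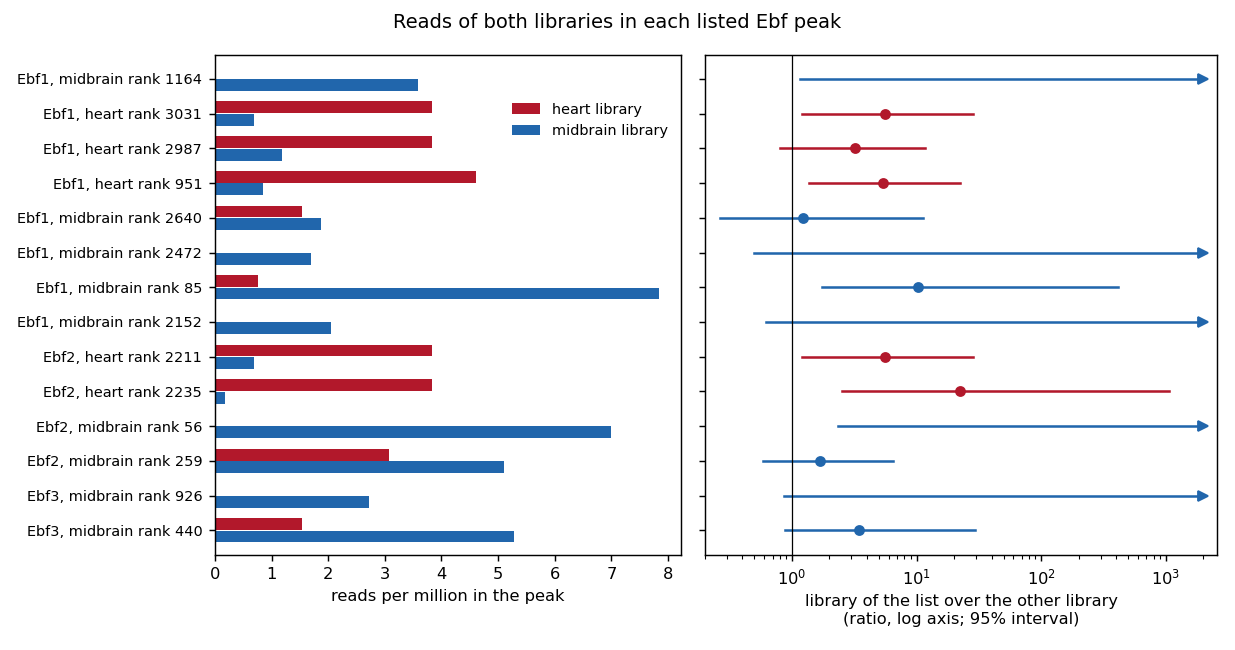
Left, library-scaled reads (rpm) of the heart and midbrain libraries in each of the 14 listed peaks, ordered by gene and position; right, the ratio of the library of the list over the other library on a log axis, with the exact 95% interval (arrows: no upper bound because the other library held 0 reads). The intervals of 4 heart peaks and 3 midbrain peaks lie to the right of 1.

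The 5 heart peaks rested on 5 or 6 heart reads each, beside a median of 6 over the heart list. Only 5.95% of the heart list held fewer than 5 heart reads. At Ebf1 the best-ranked was rank 951, on chromosome 11 at 44560230 to 44560701, with 6 heart reads (4.60 rpm) and 5 midbrain reads (0.852 rpm), so the heart over midbrain ratio was 5.40 (interval 1.37 to 22.4). Near it, the peak of rank 2987 at 44553515 to 44554161 held 5 heart and 7 midbrain reads (ratio 3.22, interval 0.805 to 11.8). It was the heart peak whose interval included 1. The peak of rank 3031, at 44520549 to 44521205, held 5 heart and 4 midbrain reads (ratio 5.63, interval 1.21 to 28.4). Ranks 2987 and 3031 stood late in the heart list, at 83.0% and 84.3% of its length.

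At Ebf2 the heart peak of rank 2211, on chromosome 14 at 67618343 to 67618845, also held 5 heart and 4 midbrain reads, with the same ratio. The peak of rank 2235, at 67754662 to 67755191, held 5 heart reads (3.83 rpm) and 1 midbrain read (0.170 rpm), a ratio of 22.5 (interval 2.52 to 1065). This was the highest ratio of the 5, and its upper bound shows how little a single midbrain read fixes its size. All 5 heart peaks held reads on both strands.

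The sums over peaks were also set apart by gene. At the Ebf1 heart peaks 16 heart and 16 midbrain reads gave 4.50 for heart over midbrain (interval 2.11 to 9.62), and at the Ebf2 heart peaks 10 heart and 5 midbrain reads gave 9.0 (interval 2.80 to 33.6). These intervals overlap. Over both genes the ratio was 5.57 (interval 3.02 to 10.4), beside 7.96 for the whole heart list. Within a fixed 1 kb about each midpoint these 3 heart ratios were 2.55, 5.50 and 3.23. At the midbrain peaks the midbrain over heart ratio was 7.40 for Ebf1 (interval 2.46 to 36.5) and 3.94 for Ebf2 (interval 1.47 to 14.9), and over the 9 peaks it was 5.38 (interval 2.78 to 11.9), beside 3.39 for the whole midbrain list. A fixed 1 kb gave 5.50 for Ebf1 (interval 2.08 to 20.6), 3.94 for Ebf2 and 10.2 for Ebf3 (interval 1.74 to 412). Over the 9 peaks it gave 5.33. After thinning the midbrain library to the heart total, the ratios were 5.33 for Ebf1, 3.25 for Ebf2 and 7.5 for Ebf3. Over the 9 peaks the thinned ratio was 4.89. The thinned Ebf2 interval began just above 1. The difference between genes was not tested, and the intervals of the 3 genes overlap one another.

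The other library was measured at each set of peaks to see what lay there without a listed peak. Midbrain reads at the 5 heart peaks were 2.03 times as dense as 5 to 10 kb away (interval 1.23 to 3.20), beside 1.94 for the whole heart list. Counts of 4, 7, 5 and 4 midbrain reads at 4 of these peaks were above the median of 2 over the heart list. Heart reads at the 9 midbrain peaks were 1.66 times as dense as in the flanks (interval 0.726 to 3.36), beside 2.41 for the whole midbrain list. No heart read was present at 5 of the 9 midbrain peaks, beside 40.7% of the midbrain list. Of the 9 heart reads at these peaks, 4 lay in the Ebf2 peak of rank 259.

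Each library was dense at its own Ebf peaks. At the heart peaks the density of heart reads was 7.42 times that of the flanks (interval 4.50 to 11.9). The density of midbrain reads at the midbrain peaks was 6.89 times that of their flanks (interval 5.80 to 8.16). The values over the whole lists were 10.5 and 7.35. Among the midbrain peaks, the value was 12.8 at the Ebf2 peak of rank 259 (interval 7.27 to 22.7) and 8.37 at the Ebf1 peak of rank 85 (interval 5.37 to 13.1). It was lowest at the Ebf1 peak of rank 1164, with 3.85 (interval 2.20 to 6.49). Against flanks 10 to 20 kb away the heart value was 11.4, and against the rest of the window it was 13.2.

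**Figure D3:**
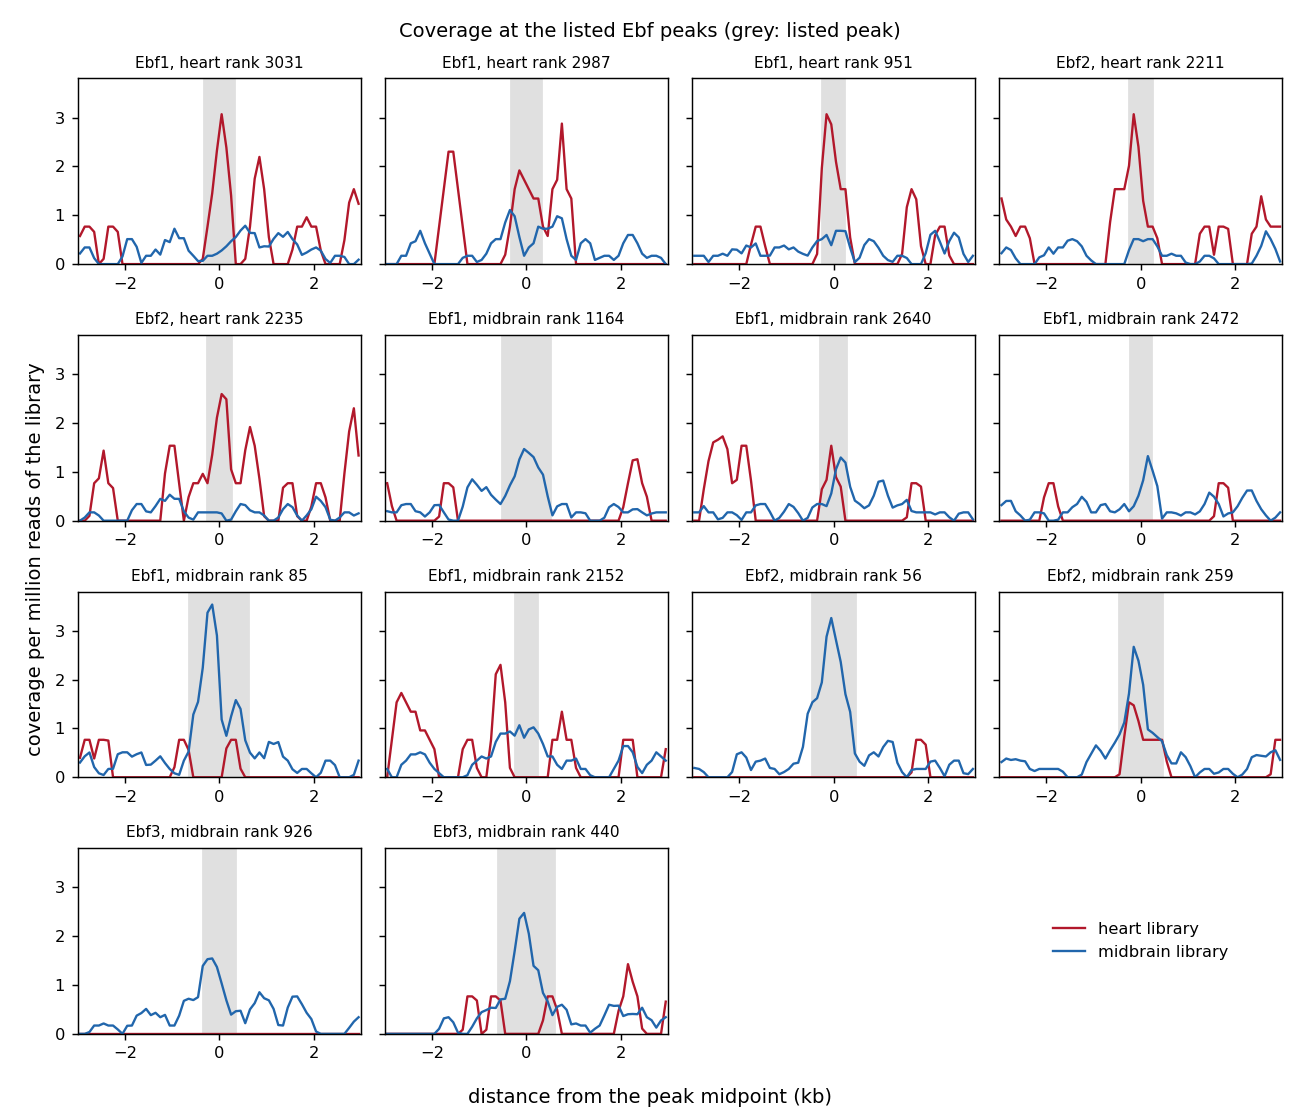
Coverage of the deposited track, scaled to library size as for rpm and averaged in 100 bp steps, within 3 kb of the midpoint of each of the 14 peaks (grey, the listed peak). Midbrain coverage rises to 3.54 at the Ebf1 peak of rank 85 and to 3.26 at the Ebf2 peak of rank 56, while heart coverage near the heart peak of rank 2987 reaches 2.88 outside the listed peak.

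The height of the deposited coverage track was set against that of its surroundings. At the Ebf2 peak of rank 56 the midbrain track reached 21 lengthened reads, and beside the peak, from 300 bp beyond its edges to 3 kb from its middle, it reached 5. At the Ebf1 peak of rank 85 the values were 21 and 5, and at the Ebf3 peak of rank 440 and the Ebf2 peak of rank 259 they were 16 and 4. The other midbrain peaks were closer to their surroundings. The track reached 10 against 5 at the Ebf3 peak of rank 926 and, at Ebf1, 9 against 6 at rank 1164, 8 against 6 at ranks 2640 and 2152, and 8 against 4 at rank 2472. At the 5 heart peaks the heart track reached 3 or 4 lengthened reads, and beside them it reached 2 to 4. Beside the Ebf1 heart peak of rank 2987 it was higher, at 4, than the 3 within the listed peak.

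**Figure D4:**
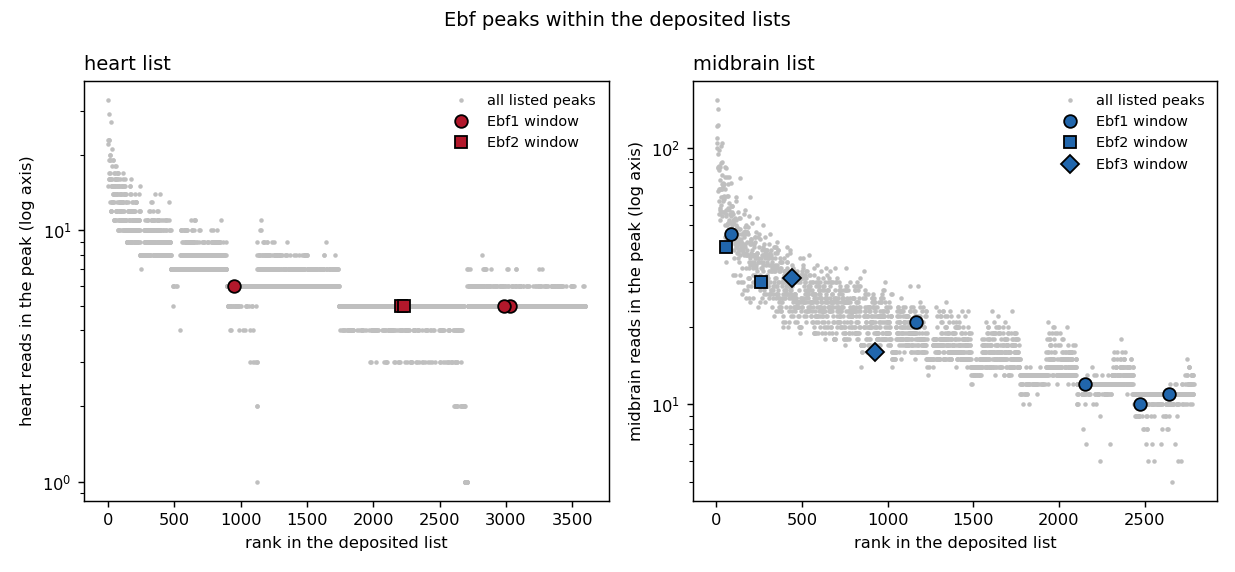
Reads of the own library in every listed peak (grey, log axis) against the rank in the deposited list, for the heart (left) and the midbrain (right), with the Ebf peaks in colour. The midbrain members run from 46 reads at rank 85 to 10 reads at rank 2472, and the heart members all hold 5 or 6 reads.

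Some places in the windows were as well covered as listed peaks and are in neither list. In the Ebf2 window the midbrain track reached 12 lengthened reads at position 67852650 of chromosome 14, about which 1 kb held 16 midbrain reads and 1 heart read. This is above the height of 5 of the 9 listed midbrain peaks, at which the track reached 8 to 10. In the Ebf1 window the heart track reached 5 lengthened reads at position 44284125 of chromosome 11, with 6 heart and 2 midbrain reads in 1 kb, where no listed heart peak of the window exceeded 4. In the Ebf2 window it also reached 5, at position 67628400 of chromosome 14, with 5 heart and 9 midbrain reads in 1 kb. Over chromosomes 1 to 19 and X, 1180 of 2428 places with at least 5 in the heart track were not at a listed heart peak. For at least 12 in the midbrain track, 233 of 1024 places were not at a listed midbrain peak. Unlisted places were more frequent at the lowest heights of the Ebf peaks. They made up 27748 of 31662 places with at least 3 in the heart track and 2400 of 5053 with at least 8 in the midbrain track. In the Ebf3 window the heart track did not exceed 3.

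A further stretch of the Ebf1 window was dense in both libraries and holds no listed peak. The 5 kb bin whose middle lies 132.5 kb from the window start held 16 heart reads (12.3 rpm) and 42 midbrain reads (7.16 rpm), beside medians of 3 heart and 15 midbrain reads over the 180 bins of the window. It had more heart reads than any other bin of the 3 windows and holds the highest midbrain coverage of the window outside the listed midbrain peaks (9 lengthened reads at position 44331575). The 1 kb about that position held 12 midbrain reads and 0 heart reads, so the heart reads of the bin lay elsewhere in it. Of 499115 bins of the genome, 0.233% held as many heart reads or more. In the Ebf3 window the bin at 302.5 kb held 12 heart reads (9.20 rpm) and 42 midbrain reads, and it ends before the midbrain peak of rank 440. In the Ebf2 window the bin at 27.5 kb also held 12 heart reads (9.20 rpm), beside 22 midbrain reads (3.75 rpm), and no listed peak. The bins at 17.5, 22.5 and 32.5 kb held 11, 10 and 11 heart reads. The heart peak of rank 2211 lies in that at 17.5 kb. Heart reads in this peak were 4.32 times as dense as in its flanks (interval 1.28 to 11.6), the lowest value of the 5 heart peaks. At least 12 heart reads were present in 0.799% of the bins of the genome.

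Over whole windows the ratio between the libraries was near 1. The Ebf1 window held 629 heart and 2931 midbrain reads, which makes 0.966 for heart over midbrain (interval 0.885 to 1.05). The Ebf2 window held 516 and 2183 reads (ratio 1.06, interval 0.965 to 1.17), and the Ebf3 window 382 and 1657 reads (ratio 1.04, interval 0.926 to 1.16). All 3 intervals included 1, and the medians over windows of equal length were 0.952, 0.941 and 0.936. Read densities were 536, 565 and 488 rpm per Mb in the heart for Ebf1, Ebf2 and Ebf3, and 555, 531 and 470.5 rpm per Mb in the midbrain. Over windows of equal length, the upper quartile lay between 497 and 500 rpm per Mb in the heart and between 441 and 443 rpm per Mb in the midbrain. The Ebf windows were above it in both libraries, except the Ebf3 window in the heart. The mean coverage of the deposited track was 0.210, 0.222 and 0.192 lengthened reads per base in the heart and 0.980, 0.939 and 0.831 in the midbrain.

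Listed peaks took a small share of these reads. The midbrain peaks held 3.41% of the midbrain reads of the Ebf1 window in 0.425% of its bases, 3.25% in 0.268% for Ebf2 and 2.84% in 0.315% for Ebf3. The heart peaks held 2.54% of the heart reads of the Ebf1 window in 0.197% of its bases and 1.94% in 0.148% for Ebf2. The differences between the libraries at the summed peaks were not detectable over the windows as wholes.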

How the data were processed

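Heart and midbrain had 1 p300 library each, grouped by the tissue label. Per the labels' protocols, DNA was selected on a gel at 300 to 500 bp. Aligned reads were deposited as 1 line per read on mm9, and reads were counted from these lines. The deposited coverage signal counts unique reads lengthened to 300 bp in 25 bp steps, per the file headers, and is not scaled. Peaks were deposited per tissue with a rank only. The peak caller and its threshold, any control and the midbrain aligner are not given in the sources used here, and blat stands in the heart track name.

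Values were computed with scipy 1.17.1, numpy 2.4.6 and pandas 2.3.3 under Python 3.11.15, and drawn with matplotlib 3.10.9. Read 5 prime ends were moved by 23 bp (heart) and 35 bp (midbrain), from strand offsets of 46 and 70 bp. The strand profiles were flat and the heart offset lies at the lower limit of the search. Scaling was to all aligned reads. Flanks left out listed peaks. Intervals are exact at 95%. They and the floors cover counting error only, because each tissue has 1 library. Amplified reads carried no molecular identifiers, though 0 deposited lines of either library repeated a position and strand. Intervals were tested on simulated counts, and counting was checked against a plain loop over the real reads of the 3 windows. The simulated counts followed the same model of counting error that the intervals assume, and no peak was selected by them. That test therefore says nothing about the effect of listing peaks from the reads counted here. The rule named, per window, the 3 best-ranked peaks of each list and overlapping peaks, and the remaining peaks are given as well. The windows and genes were chosen with earlier results of these data known. A planned count of peaks near related genes and tissue markers was not run, as it needs mm9 gene models.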

Additional observations from a re-analysis of the deposited data

How the results depend on the processing

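Of 102 alternatives over 22 results, 93 gave a value inside the interval of the main one (for counts, at most 1.5 times apart). The other 9 did not, and 0 turned a direction. A turn could be recorded only for ratios whose main interval excluded 1. It could not be recorded for counts, whole windows or the enrichment of heart reads at the midbrain peaks. Wide intervals also let large shifts pass as unmoved, so these numbers of alternatives say little about stability. With the better-ranked 50% of each list, the Ebf1 window kept 1 heart and 2 midbrain peaks, the Ebf2 window 0 heart peaks, and 1 heart peak had its interval on its own side. That number was 2 within a fixed 1 kb and 1 with thinned midbrain reads, in place of 4. The enrichment of heart reads at the heart peaks was 13.2 against the rest of the window, and that of midbrain reads at the midbrain peaks was 8.23 against flanks 10 to 20 kb away and 9.62 against the rest of the window. Fewer peaks, wider regions, fewer reads and other flanks make these alternatives by construction. No ratio could be given for the Ebf2 heart peaks in the better-ranked 50%. Depth limits the heart values, since each heart peak rests on 5 or 6 reads. No paired analysis was possible because each tissue has 1 library.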
